A study of Mus musculus with 3 samples.

Results

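Endothelial junctions were followed through 10 of the 31053 genes listed for mouse bone marrow cells. The proteins of Cdh5, Pecam1, Cldn5, Ocln, F11r, Jam2, Jam3, Esam and Tjp1 build or regulate the contacts between endothelial cells. Plvap, the last of the 10, encodes the protein of diaphragms that span fenestrae, caveolae and transendothelial channels. The 10 genes were taken by symbol from the gene lists of the 3 deposited libraries, and all were present under 1 Ensembl identifier each. Their levels were read in arterial and sinusoidal endothelial cells and compared between these vessel types and between the libraries. Jam2, Jam3 and Pecam1 were higher in arterial than in sinusoidal cells, Cldn5 was lower, 5 genes were not called in either direction, and Ocln was near 0 in every cell class. Over all genes tested, 10.7% were called higher and 13.1% lower in arterial cells. Ocln had too few UMIs for a ratio between libraries. None of the other junction genes differed by 1.5-fold or more, in one direction, between VC and both control libraries in arterial or sinusoidal cells. Over all genes, 2.81% were that much higher in VC and 3.61% lower in arterial cells, and 1.51% and 0.361% in sinusoidal cells. In endothelial cells of neither vessel type, 6 of 8 junction genes with enough UMIs were that much higher in VC, as were 6.86% of genes. They were not once cells with Ptprc or at least 2 Adipoq UMIs were left out.

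Endothelial cells are held together by adherens junctions, in which VE-cadherin binds its like on the neighbouring cell, and by tight junctions, in which claudins form the sealing strands and junctional adhesion molecules (JAMs) sit beside them. Scaffold proteins such as ZO-1 tie the tail ends of claudins and JAMs to the actin skeleton. Marrow sinusoids are thin, leaky vessels through which blood cells enter the circulation, whereas marrow arteries and arterioles are less permeable.

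Each genotype was 1 library, and the sources used here do not say how many mice lay behind it. The VC library came from Cdh5CreERT2;Vegfc flox/flox mice, in which the Cdh5 promoter drives a tamoxifen-activated Cre recombinase in endothelium. The FLOX library came from Vegfc flox/flox mice with no Cre named, and the WT library from mice labelled WT. Mice of all 3 groups were of strain C57Bl/6JCrl and had been given tamoxifen, and no age is given. Vegfc encodes a growth factor that binds the receptors Flt4 and Kdr. Since an antibody to VE-cadherin marked the endothelium before collection, the protein made from Cdh5 took part in selecting the cells, so that its presence in endothelial cells is a description only. With 1 library per genotype, differences between libraries have no replicate check, and no test was run on them. Fewer expressing cells, less RNA per cell and differences between preparations or mice cannot be told apart there.

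The files hold UMIs, unique molecular identifiers that each stand for 1 captured transcript. Levels are CPM, a gene's UMIs scaled to a common total of 1e6 UMIs over all genes in the same cells. Barcodes with under 500 genes or with mitochondrial transcripts above 10% were dropped, which left 2738 VC, 5734 FLOX and 4318 WT cells. A cell was endothelial with at least 5 UMIs of Kdr, Eng and Egfl7 together and fewer than 50 of Cxcl12, sinusoidal with at least 2 UMIs of the scavenger receptor Stab2, and arterial with at most 1 Stab2 UMI and at least 2 of the 4 genes Sox17, Sema3g, Fbln2 and Gja4. This gave 86 VC, 186 FLOX and 59 WT arterial cells, and 1638 VC, 3189 FLOX and 2993 WT sinusoidal cells. Median depth in arterial cells was 9209.5, 6458 and 11649 UMIs in VC, FLOX and WT, and in sinusoidal cells 10767.5, 7789 and 11106 UMIs. Endothelial cells in neither class numbered 76 VC, 180 FLOX and 76 WT. Cells with 50 or more Cxcl12 UMIs, called LepR stromal here, and cells with Ptprc but none of the 3 endothelial genes, called haematopoietic, served as classes that should lack most junction genes. Between 5 and 9 endothelial barcodes of each library also occurred in another library.

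The arterial and sinusoidal classes carried further markers of their vessel type, with 1 exception. All 4 arterial genes kept out of the gate, Efnb2, Hey1, Gja5 and Bmx, rose in arterial cells by the fit described below, and all 4 sinusoidal ones, Stab1, Flt4, Vcam1 and Adamts5, fell. In the WT library, however, arterial cells had 0 UMIs of Gja5, 0 of Bmx and 4 of Hey1, where VC had 43, 25 and 63 and FLOX had 74, 55 and 102 UMIs of the same genes. Efnb2 was alike, at 379 CPM in VC, 462 CPM in FLOX and 422 CPM in WT arterial cells. Arterial values of WT therefore come from cells without these markers of larger arteries, and each result that rests on WT is given per library. Neutrophil granule genes made up 26527 CPM in VC, 26837 CPM in FLOX and 348 CPM in WT arterial cells, against 4152, 6939 and 934 CPM in VC, FLOX and WT sinusoidal cells, and 5 VC, 9 FLOX and 0 WT arterial cells held over 2% of such UMIs. Smooth muscle and pericyte genes summed to 188, 145 and 7.01 CPM in VC, FLOX and WT arterial cells, against 3.86, 4.59 and 6.67 CPM in sinusoidal cells. Results were recomputed without the cells over 2% neutrophil UMIs or with any smooth muscle or pericyte UMI, a setting chosen after the data had been seen. The floxed gene itself was rare in endothelial cells, with 6 UMIs in VC, 28 in FLOX and 65 in WT, or 0.260, 0.833 and 1.597 CPM. Counts from the 3' end need not report the loss of floxed exons.

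Several of these proteins end in a short tail that binds PDZ domains of scaffold proteins, the docking site for ZO-1 and its relatives, so the ends of their coding sequences are shown. Each line gives the last 30 coding bases from GENCODE M21 transcripts on GRCm38 (the same assembly as mm10), 5′ to 3′ on the coding strand, and the capitals mark the last 4 codons before the stop.
F11r, chr1:171463065-171463094, plus strand: ttcaaacagacctcgTCGTTCCTGGTGtga
Jam2, chr16:84822790-84822819, plus strand: ttcaagcacacaaaaTCCTTTATAATTtaa
Jam3, chr9:27098366-27098395, minus strand: ttcagacacaaatcgTCCTTTGTTATCtga
Esam, chr9:37537753-37537782, plus strand: gcacagagtcaggctGGGTCTCTTGTGtga
Cldn5, chr16:18777623-18777652, plus strand: ggcgattacgacaagAAGAACTATGTCtaa
Of the 12 bases in capitals, Jam2 and Jam3 shared 9, F11r and Esam 7, Jam2 and F11r 6, and Jam2 and Cldn5 1. A link of these ends with vessel type was not tested.

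Arterial and sinusoidal cells were compared on 6 sums of UMIs, 1 per vessel type and library, with edgeR's quasi-likelihood test and library as a block. Of 13327 genes tested, 23.8% had a Benjamini-Hochberg adjusted p under 0.05, 10.7% higher and 13.1% lower in arterial cells. Of the 10 junction genes 9 passed the filter on low counts, and of these 3 were higher, 1 was lower and 5 were not called. The median log2 fold change was -0.06 over the 9 and -0.06 over all genes tested. Both vessel types of a library come from the same mice and droplets, and the test describes the spread over 3 libraries of different genotype. Through its scaling, the fit's log2 fold changes differ from log2 ratios of CPM by a median of -0.11 over 3031 genes at 50 CPM or more. Leaving out FLOX lowered the genes called to 1380, with the same 4 members among them. Gate genes were left out of the calls.

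**Figure D1:**
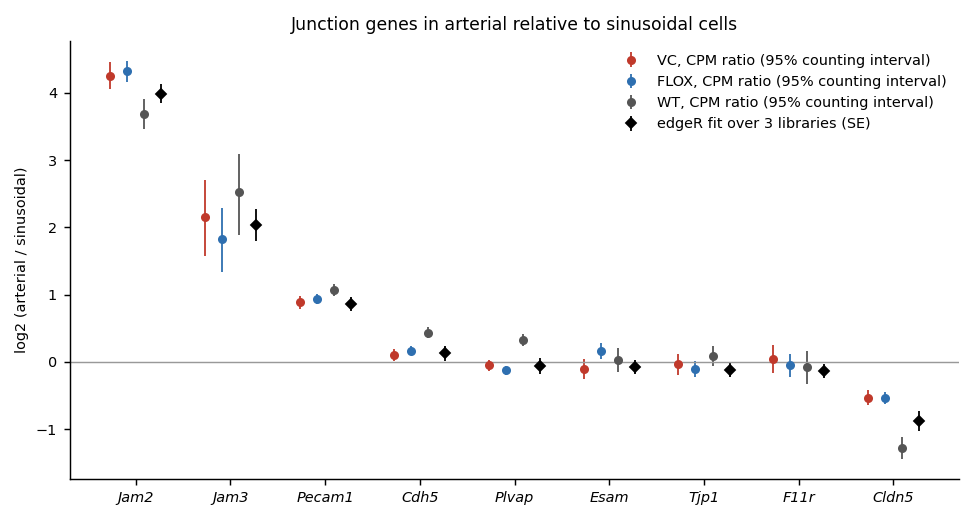
Arterial relative to sinusoidal level of 9 junction genes, as log2 ratios of CPM in VC, FLOX and WT (points, 95% counting intervals) and as the edgeR log2 fold change over the 3 libraries (diamonds, standard error). Jam2, at 3.99 in the fit, Jam3, at 2.03, and Pecam1, at 0.86, lie above 0 in each library, and Cldn5, at -0.88, lies below 0 in each.

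VE-cadherin, encoded by Cdh5 (chr8:104101625-104144511, plus strand), is the cadherin of endothelial adherens junctions. Its level was 1129 CPM in VC, 1102 CPM in FLOX and 1602 CPM in WT arterial cells, against 1053, 982 and 1186 CPM in VC, FLOX and WT sinusoidal cells. The ratio of arterial to sinusoidal level was 1.07 in VC (95% counting interval 1.01 to 1.14), 1.12 in FLOX (1.07 to 1.18) and 1.35 in WT (1.27 to 1.43). The log2 fold change of 0.13 (SE 0.11) was not called (edgeR adjusted p = 0.469). Arterial cells were thus slightly above sinusoidal cells in each library, by less than the fit could tell from the spread between libraries. Cdh5 was detected in 99.6% of VC, 98.9% of FLOX and 99.2% of WT sinusoidal cells, against 6.22%, 4.95% and 7.84% of haematopoietic cells.

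Pecam1 (chr11:106654217-106750628, minus strand) encodes CD31, an adhesion protein at the borders of endothelial cells that leukocytes and platelets also carry. It had 999.5 CPM in VC, 1146 CPM in FLOX and 1305 CPM in WT arterial cells, against 540.2 CPM in VC, 600.0 CPM in FLOX and 622 CPM in WT sinusoidal cells. The lowest arterial value lay above the highest sinusoidal one. The ratios were 1.85 (1.73 to 1.98) in VC, 1.91 (1.82 to 2.00) in FLOX and 2.098 (1.96 to 2.24) in WT. Pecam1 rose in arterial cells by a log2 fold change of 0.86 (SE 0.10, edgeR adjusted p = 1.19e-04). Unlike the other members it was also found in many haematopoietic cells, 32.9% of VC, 24.3% of FLOX and 40.2% of WT ones. Over 15 settings, among them those that left out cells with Ptprc or over 2% neutrophil UMIs, its log2 fold change lay between 0.80 and 0.99.

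Claudin-5, encoded by Cldn5 (chr16:18776847-18778262, plus strand), forms the tight junction strands of endothelium. It had 736 CPM in VC, 701 CPM in FLOX and 446 CPM in WT arterial cells, against 1065 CPM in VC, 1015 CPM in FLOX and 1081 CPM in WT sinusoidal cells. Every arterial value lay below every sinusoidal one, and WT arterial cells were the lowest. Cldn5 fell in arterial cells with a log2 fold change of -0.88 (SE 0.14, edgeR adjusted p = 0.00102). The ratios were 0.691 in VC (0.641 to 0.744), 0.691 in FLOX (0.650 to 0.733) and 0.412 in WT (0.368 to 0.460), so the size of the difference depended on the library. Without the cells over 2% neutrophil UMIs or with any smooth muscle UMI, arterial Cldn5 was 863 CPM in VC, 758 CPM in FLOX and 475 CPM in WT, still below the sinusoidal 1076, 1030.4 and 1087 CPM of the same libraries. Among 25 claudin genes listed, 2 reached a mean of 10 CPM in either vessel type, Cldn5 and Cldn15, and 11 had no UMI in either. Cldn15 had 28.7, 18.2 and 5.61 CPM in VC, FLOX and WT arterial cells, from 28, 29 and 4 UMIs, against 6.74, 9.75 and 9.95 CPM in VC, FLOX and WT sinusoidal cells, and it was not called (edgeR adjusted p = 0.131).

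Occludin, encoded by Ocln (chr13:100496507-100552718, minus strand), is a membrane protein of tight junctions in epithelium and in tight endothelium such as that of the brain. It had 0 UMIs in VC, 2 in FLOX and 0 in WT endothelial cells. A count of 0 allows, at a limit of 3 UMIs, up to 0.130 CPM in VC and 0.0737 CPM in WT endothelial cells. The depth of arterial cells alone was smaller and allowed up to 3.08 CPM in VC, 1.88 CPM in FLOX and 4.204 CPM in WT. LepR stromal and haematopoietic cells together held 4 UMIs over the 3 libraries, so endothelial counts of Ocln were no higher than those of cells outside the endothelium. Its relative Marveld2, tricellulin, had 1 UMI in VC, 8 in FLOX and 6 in WT arterial cells and 2.98, 3.70 and 5.06 CPM in VC, FLOX and WT sinusoidal cells.

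Of the members tested, Jam2 and Jam3 had the largest fold changes between vessel types, while the third JAM gene, F11r, was not called. JAM-B, encoded by Jam2 (chr16:84774123-84825928, plus strand), binds JAM-C on neighbouring cells and serves leukocyte passage. It had 410.1 CPM in VC, 407 CPM in FLOX and 285 CPM in WT arterial cells, from 400, 650 and 203 UMIs, against 21.5, 20.4 and 22.1 CPM in VC, FLOX and WT sinusoidal cells. Arterial values were more than 10 times the sinusoidal ones in each library, with ratios of 19.1 (16.6 to 21.9) in VC, 19.9 (17.8 to 22.3) in FLOX and 12.8 (10.97 to 15.0) in WT. Jam2 rose in arterial cells by a log2 fold change of 3.99 (SE 0.14, edgeR adjusted p = 1.76e-08). It was detected in 90.7% of VC, 82.8% of FLOX and 78.0% of WT arterial cells, against 12.0%, 9.50% and 10.9% of VC, FLOX and WT sinusoidal cells. After each cell was thinned to 2000 UMIs, which left out 18 VC, 42 FLOX and 28 WT endothelial cells, the shares were 41.9%, 47.8% and 39.0% in VC, FLOX and WT arterial cells and 3.61%, 3.25% and 3.05% in sinusoidal cells. In haematopoietic cells the thinned shares were 0% in VC and FLOX and 0.254% in WT.

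JAM-C, encoded by Jam3 (chr9:27097384-27155421, minus strand), had 33.8 CPM in VC, 28.2 CPM in FLOX and 37.8 CPM in WT arterial cells, from 33, 45 and 27 UMIs, against 7.58, 7.93 and 6.60 CPM in VC, FLOX and WT sinusoidal cells. The groups did not overlap. Jam3 rose in arterial cells by a log2 fold change of 2.03 (SE 0.23, edgeR adjusted p = 8.46e-05), and its level was low in both vessel types. In VC, up to 9 of the arterial UMIs lay in 1 cell. After thinning to 2000 UMIs, Jam3 was detected in 4.65% of VC, 6.45% of FLOX and 1.69% of WT arterial cells, the WT share from 1 cell. In sinusoidal cells the thinned shares were 1.35%, 1.89% and 1.07% in VC, FLOX and WT. JAM-A, encoded by F11r (chr1:171437535-171464603, plus strand), is the most widely found of the family and also occurs on platelets and epithelium. Its level was 210.2 CPM in VC, 193 CPM in FLOX and 199 CPM in WT arterial cells, against 204, 201 and 210.5 CPM in VC, FLOX and WT sinusoidal cells. These values overlapped, and F11r was not called (log2 fold change -0.14, SE 0.10, edgeR adjusted p = 0.388).

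The makeup of the JAM transcripts followed these levels. Jam2 took 62.7% (58.8 to 66.5) of the UMIs of the 3 JAM genes in VC, 64.7% (61.7 to 67.7) in FLOX and 54.6% (49.4 to 59.7) in WT arterial cells. In sinusoidal cells it took 9.21% (8.42 to 10.0) in VC, 8.91% (8.25 to 9.61) in FLOX and 9.26% (8.68 to 9.86) in WT, and F11r took 87.5%, 87.6% and 88.0%. Intervals are exact binomial ones for counting error only. Capture can differ between genes, so the shares compare vessel types and not the genes with each other.

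**Figure D2:**
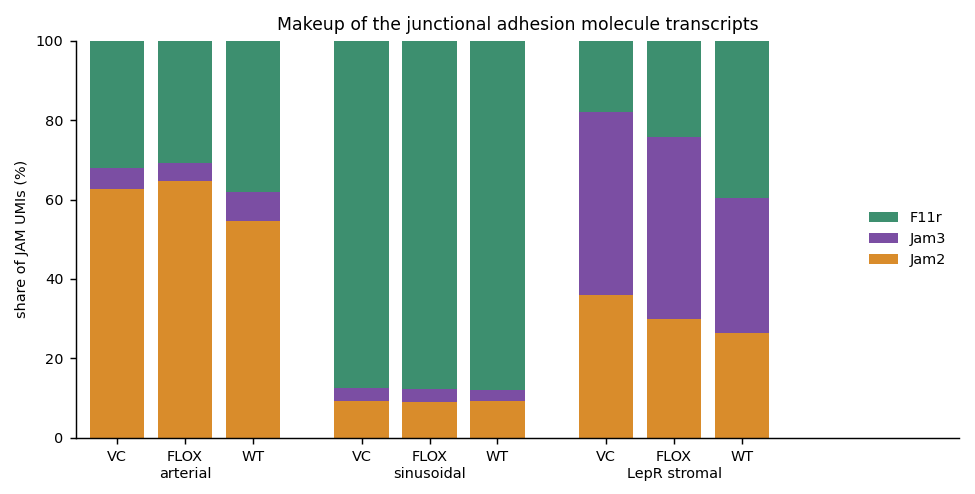
Shares of Jam2, Jam3 and F11r in the UMIs of the 3 JAM genes (vertical axis, percent) in arterial, sinusoidal and LepR stromal cells of VC, FLOX and WT. Jam2 holds 54.6% to 64.7% in arterial cells and F11r holds 87.5% to 88.0% in sinusoidal cells.

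Esam (chr9:37528078-37538319, plus strand) encodes an adhesion molecule related to the JAMs that is found at endothelial tight junctions and on platelets. Platelet and megakaryocyte genes summed to 3.08, 4.38 and 16.8 CPM in VC, FLOX and WT arterial cells, against 35.7, 28.2 and 39.9 CPM in sinusoidal cells. Esam had 372 CPM in VC, 413 CPM in FLOX and 377 CPM in WT arterial cells, against 399.9 CPM in VC, 369 CPM in FLOX and 369 CPM in WT sinusoidal cells. It was not called (log2 fold change -0.08, SE 0.10, edgeR adjusted p = 0.655). Cxadr, which is no member and is named by the rule for the tight junction list, encodes the coxsackievirus and adenovirus receptor, another relative of the JAMs at tight junctions. It went the other way from Jam2: 2 UMIs in VC, 5 in FLOX and 6 in WT arterial cells, or 2.05, 3.13 and 8.41 CPM, against 345, 345 and 488 CPM in VC, FLOX and WT sinusoidal cells. The ratios of arterial to sinusoidal level were 0.00594 (7.19e-04 to 0.0215) in VC, 0.00908 (0.00295 to 0.0212) in FLOX and 0.0172 (0.00632 to 0.0375) in WT. Of the 7 listed JAM-related genes, 5 reached a mean of 10 CPM in either vessel type: 2 of them, Jam2 and Jam3, were higher in arterial cells, 1, Cxadr, was lower, and 2, F11r and Esam, were not called. Over all genes tested, 10.7% were called higher and 13.1% lower.

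Tjp1 (chr7:65296165-65527781, minus strand) encodes ZO-1, the scaffold under tight junctions. It had 368 CPM in VC, 389 CPM in FLOX and 548 CPM in WT arterial cells, against 378, 419 and 515 CPM in VC, FLOX and WT sinusoidal cells. The vessel types overlapped and Tjp1 was not called (log2 fold change -0.13, SE 0.10, edgeR adjusted p = 0.433).

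Plvap (chr8:71497765-71511752, minus strand) encodes the protein of the diaphragms that span fenestrae, caveolae and transendothelial channels. It had 1304 CPM in VC, 1118 CPM in FLOX and 1588 CPM in WT arterial cells, against 1354 CPM in VC, 1218 CPM in FLOX and 1267 CPM in WT sinusoidal cells. The ratio was 0.963 (0.910 to 1.02) in VC, 0.918 (0.875 to 0.963) in FLOX and 1.25 (1.18 to 1.33) in WT. Plvap was not called (log2 fold change -0.06, SE 0.12, edgeR adjusted p = 0.778), and its direction depended on the library. The coordinates of all members are those of GENCODE M21 on GRCm38. Cdh5, Jam3, Plvap and Tjp1 overlap another annotated gene on the other strand, and Tjp1 and Jam2 overlap genes on their own strand. The sources used here do not say if counting used strand, so reads of such pairs may not be told apart.

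**Figure D3:**
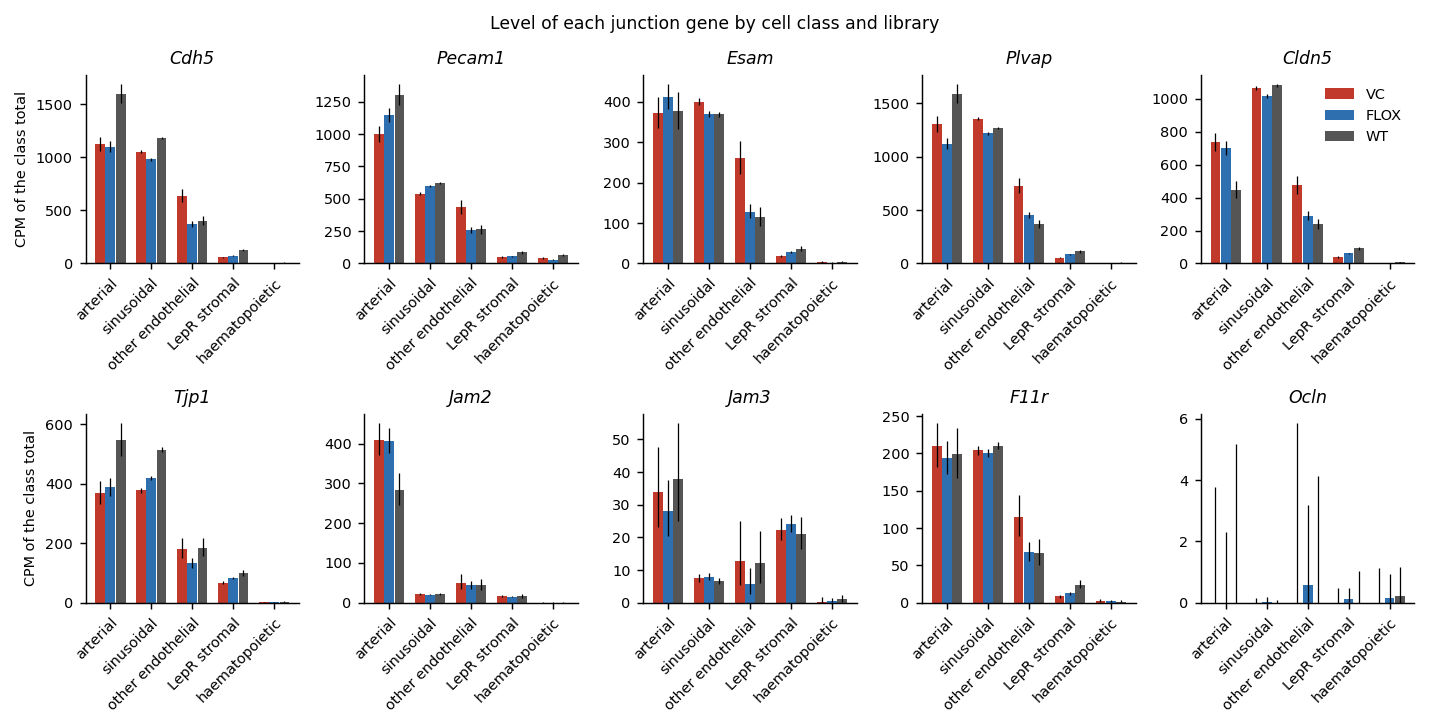
Level of each member (vertical axis, CPM of the class total, a scale per panel) in 5 cell classes of VC, FLOX and WT, with 95% counting intervals. Jam2 stands out in arterial cells, at 285 to 410.1 CPM, the intervals of Jam3 in LepR stromal and arterial cells overlap, and Ocln bars are at or near 0.

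The order of the classes differed between members. For Cdh5, Pecam1, Cldn5, Esam, F11r, Tjp1 and Plvap both vessel types lay above the other endothelial cells, which lay above LepR stromal and then haematopoietic cells, in each library. This order was that of classes with all their cells kept. Without other endothelial cells holding Ptprc or at least 2 Adipoq UMIs, Pecam1 there was 645, 635 and 774 CPM in VC, FLOX and WT. The sinusoidal level, over all cells, was 540.2, 600.0 and 622 CPM. Cdh5 in FLOX and WT and Esam in VC then also lay above their sinusoidal level. Cldn5, F11r, Tjp1 and Plvap stayed below theirs in each library. The stromal level of Cdh5, Cldn5, Esam, F11r and Plvap was between 3.63% and 11.6% of the sinusoidal level, and Cdh5 was found in 10.3% of VC, 13.2% of FLOX and 16.7% of WT stromal cells. At its threshold the stromal class held cells that also had at least 5 UMIs of Kdr, Eng and Egfl7 together. There were 2 VC, 8 FLOX and 3 WT such cells with 50 to 59 Cxcl12 UMIs. They had Cdh5 at 1088, 1165 and 1098 CPM and Plvap at 476, 710.2 and 1244 CPM. Chosen in part by endothelial genes, they do not stand for all cells with 50 to 59 Cxcl12 UMIs. Just below the threshold, 6 VC, 11 FLOX and 4 WT cells had 40 to 49 Cxcl12 UMIs and passed the same endothelial cut. Their Cdh5 was 777, 1198 and 1892 CPM. Tjp1 lay higher in stromal cells, at 68.0 CPM in VC, 82.8 CPM in FLOX and 100.2 CPM in WT, or 18.0%, 19.8% and 19.5% of its sinusoidal level. It was detected in 50.9% of VC, 49.8% of FLOX and 48.6% of WT stromal cells. Jam2 had 17.5, 15.7 and 16.2 CPM in VC, FLOX and WT stromal cells. Of its stromal UMIs, 12 of 131 in VC, 49 of 243 in FLOX and 18 of 57 in WT came from the 2, 8 and 3 cells above. Those cells were chosen by both Cxcl12 and the endothelial genes. Jam3 had 22.4 CPM in VC, 24.1 CPM in FLOX and 21.01 CPM in WT stromal cells, which overlapped with arterial cells in their counting intervals and was 295%, 304% and 318% of its sinusoidal level. Jam3 took 46.2%, 45.9% and 34.1% of the JAM UMIs of VC, FLOX and WT stromal cells.

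The level of Jam2 also differed with the number of arterial genes seen in a cell. Among cells with at most 1 Stab2 UMI, Jam2 was 17.3, 15.7 and 13.5 CPM in VC, FLOX and WT cells with none of the 4 arterial gate genes, 143, 157 and 194 CPM with 1, and 288, 289.7 and 245 CPM with 2. It was 536, 432 and 246 CPM in VC, FLOX and WT cells with 3, and 401, 452 and 413 CPM with all 4. In VC the level was thus lower with 4 than with 3, and in WT it was alike with 2 and 3. The WT bins of 1, 3 and 4 genes held 19, 16 and 12 cells. The first step, from none to 1 gene, was not particular to Jam2. Across it Cdh5 went from 340 to 1470 CPM in VC and from 215 to 1013 CPM in FLOX. Plvap went from 444 to 1500 CPM in VC and from 239 to 1321 CPM in FLOX. Inside the sinusoidal gate, where the arterial genes had no part in the selection, Jam2 was also higher with each further gene. There it was 9.56, 9.22 and 8.03 CPM in VC, FLOX and WT cells with none, 15.3, 14.8 and 12.3 CPM with 1, 45.6, 69.7 and 64.7 CPM with 2, 162, 144 and 190 CPM with 3, and 292, 247 and 233 CPM with all 4. Pecam1 was 503, 558 and 547 CPM in VC, FLOX and WT cells with none, 776, 969 and 1118 CPM with 3, and 801, 839 and 1390 CPM with all 4, so in FLOX it was lower with 4 than with 3. Cldn5 was 1065, 989.9 and 1057 CPM in VC, FLOX and WT cells with none, 1098, 793 and 849 CPM with 3, and 711, 724 and 845 CPM with all 4. With all 4 genes Cldn5 was thus lower than with none in each library. Over all 5 bins Esam lay between 306 and 452 CPM and F11r between 178 and 219 CPM, with no common order. Bins of 3 genes held 18 VC, 29 FLOX and 47 WT cells and bins of 4 held 9, 15 and 13, and the median depth of cells with none and with 3 was 9912 and 19081 UMIs in VC, 7224 and 17673 in FLOX, and 10076.5 and 23562 in WT. Detecting more genes goes with depth, and the part of depth and of mixed droplets in this order was not tested.

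**Figure D4:**
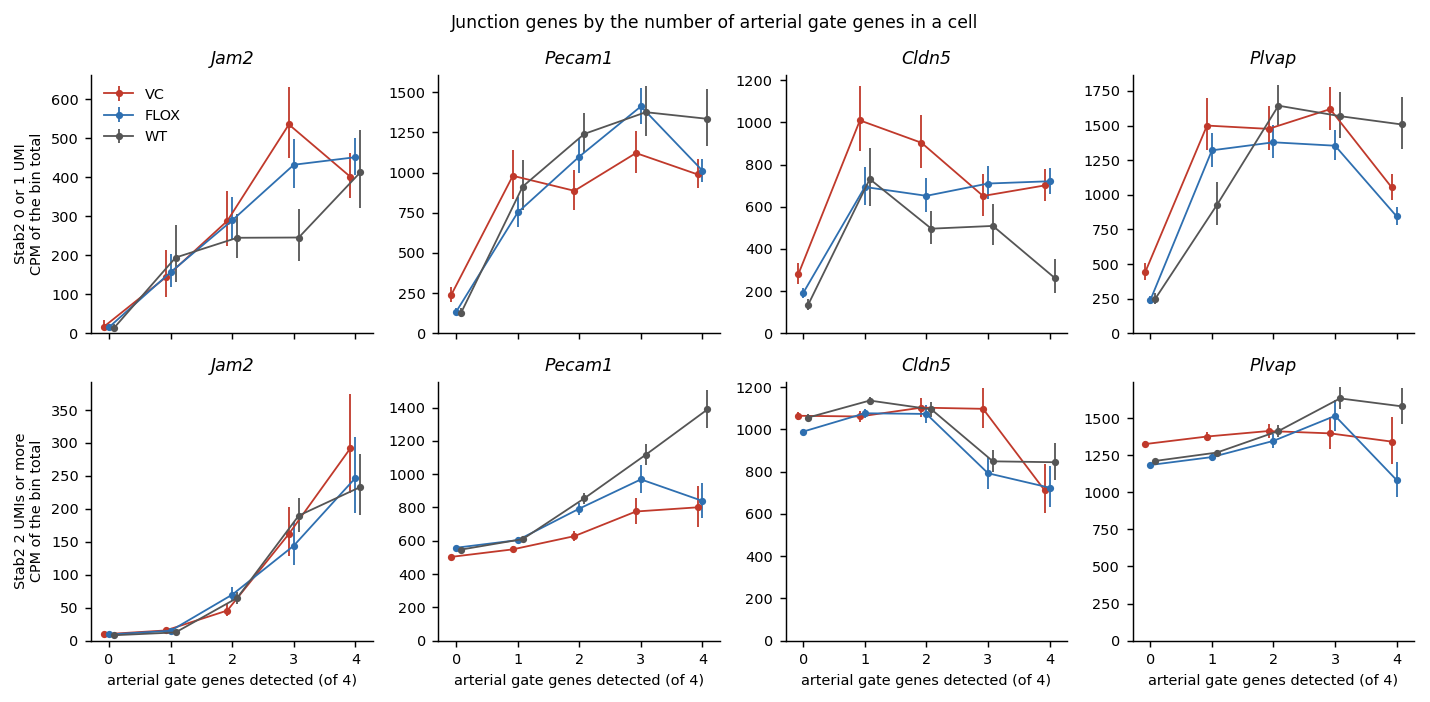
Level of Jam2, Pecam1, Cldn5 and Plvap (CPM of the bin total, 95% counting intervals) by the number of the 4 arterial gate genes detected, in endothelial cells with at most 1 Stab2 UMI (top) and with at least 2 (bottom), in VC, FLOX and WT. In the lower row Jam2 is higher at each step, under 10 CPM at 0 genes and 233 CPM or more at 4, where bins hold 9 to 15 cells.

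Cells just inside and just outside the thresholds are given as a description. With exactly 2 Stab2 UMIs, sinusoidal by the gate, Jam2 was 169.9 CPM in VC, 98.3 CPM in FLOX and 239 CPM in WT, and with exactly 1 it was 187, 162 and 259 CPM in VC, FLOX and WT. These values lay between the sinusoidal and arterial levels of Jam2, but those of Cdh5 and Plvap did not always do so. Cdh5 was 1243, 1113 and 1485 CPM in VC, FLOX and WT cells with 2 Stab2 UMIs and 1096, 1059 and 1462 CPM with 1, and Plvap was 1507, 1346 and 1791 CPM with 2 and 1442, 1216 and 1500.4 CPM with 1. With exactly 5 UMIs of Kdr, Eng and Egfl7, just inside the endothelial gate, Cdh5 was 373 CPM in VC, 204 CPM in FLOX and 137 CPM in WT, and with 4 it was 184, 220.4 and 158 CPM. With over 10 Stab2 UMIs Jam2 was 10.8 CPM in VC, 12.7 CPM in FLOX and 10.8 CPM in WT. The 53 VC, 68 FLOX and 99 WT sinusoidal cells with at least 3 Jam2 UMIs, chosen by that value, made up 3.24%, 2.13% and 3.31% of sinusoidal cells. They had Efnb2 at 190.1, 214 and 293 CPM in VC, FLOX and WT, against 19.6, 21.9 and 21.6 CPM in sinusoidal cells without Jam2. Their Stab1 level was 463 CPM in VC, 461.5 CPM in FLOX and 382 CPM in WT, against 797, 695 and 609 CPM without Jam2, and their median depth was 18700, 15518.5 and 21065 UMIs in VC, FLOX and WT against 10408, 7562.5 and 10849.5.

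Genes most like a member were ranked by Pearson correlation of log2 CPM over 15 points, the 5 classes in 3 libraries, among 6809 genes. Those nearest to Cdh5 were Sema6a, Unc45b and Shank3, those nearest to Plvap were Sema6a, Enpp6 and Shank3, and those nearest to Cldn5 were Mmrn2, Galnt18 and Tek. All 9 correlations lay at 0.992 or above. The points share libraries and the same cell classes, so the correlations are given as a description. For Jam2, added after the values were seen, the nearest were Cav1, Efnb2 and Pcdh1, and Cav1, the structural protein of caveolae, had 369, 386 and 314 CPM in VC, FLOX and WT arterial cells against 15.3, 15.5 and 23.7 CPM in VC, FLOX and WT sinusoidal cells.

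Other junction genes came from lists of the same compartments. Of 11 adherens junction genes tested, 3 rose in arterial cells, 3 fell and 5 were not called, with a median log2 fold change of 0.19. Ptprb, the phosphatase that acts on VE-cadherin, rose (log2 fold change 0.88), as did the linker Afdn (0.66) and beta-catenin, Ctnnb1 (0.56). Nectin2, an adhesion molecule of adherens junctions, fell (-1.68), as did p120-catenin, Ctnnd1 (-0.47), and N-cadherin, Cdh2, with 1 UMI in VC, 1 in FLOX and 0 in WT arterial cells against 10.0, 26.8 and 22.7 CPM in VC, FLOX and WT sinusoidal cells. Of 13 tight junction genes outside the members 5 fell and 7 were not called, with a median of -0.45. Those that fell were Cxadr, Patj, Pard3 (-1.11), Magi1 (-0.62) and Amotl1 (-0.52). The polarity protein Patj had 0 UMIs in VC, 1 in FLOX and 0 in WT arterial cells and 2.70, 2.74 and 2.86 CPM in VC, FLOX and WT sinusoidal cells.

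Of 3 gap junction genes outside the gate, Gja5 and Gjc1 rose and Gja1 was not called. Gja5 had 43 UMIs in VC, 74 in FLOX and 0 in WT arterial cells, against 7, 7 and 2 in VC, FLOX and WT sinusoidal cells. Gjc1 had 24.6 CPM in VC, 31.3 CPM in FLOX and 9.81 CPM in WT arterial cells against 0.372, 0.727 and 0.946 CPM in VC, FLOX and WT sinusoidal cells. Of 5 glycoproteins of cell borders tested, Cd34 (3.71), Icam2 (0.96) and Mcam (0.57) rose, Icam1 (-2.22) fell and Cd99l2 was not called. Of 6 caveolar genes, Cav1 (4.22), Cav2 (1.76), Cavin1 (1.11) and Ehd2 (0.91) rose and Cavin2 and Cavin3 were not called. Fold changes given alone include the WT arterial cells, and the libraries can differ behind them. The arterial to sinusoidal ratio of Cavin2 was 1.19 (1.10 to 1.29) in VC, 1.03 (0.963 to 1.09) in FLOX and 0.742 (0.669 to 0.821) in WT. That of Cav2 was 4.51, 4.16 and 2.49 in VC, FLOX and WT. The edgeR adjusted p of all genes said here to rise or fall was 0.0130 or lower except that of Patj, at 0.0448, read against the 23.8% of all genes called.

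Between libraries, values are set side by side with no test. In endothelial cells as a whole 8 members had a mean of at least 10 CPM and 50 UMIs, and 0 of them lay 1.5-fold or more above both FLOX and WT in the VC library, or below both. Over the 8401 genes that could pass, 1.43% were that much higher in VC and 0.476% that much lower. In arterial cells the members past the rule were 0 of 9 (2.81% of 7257 genes higher and 3.61% lower) and in sinusoidal cells 0 of 8 (1.51% of 8304 genes higher and 0.361% lower). Against WT, the ratio farthest from 1 in sinusoidal cells was that of Tjp1. It had 378 CPM in VC, against 419 CPM in FLOX and 515 CPM in WT, a ratio of 0.902 (0.877 to 0.928) to FLOX and of 0.734 (0.715 to 0.753) to WT. VC was the lowest and WT the highest, and FLOX also lay below WT by a ratio of 0.813 (0.795 to 0.831). Ratios of VC to FLOX and to WT of the other 8 members with UMIs there lay between 0.869 and 1.15.

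In arterial cells VC and FLOX lay closer to each other than to WT for several members. Cldn5 was 1.65-fold (1.45 to 1.89) higher in VC than in WT and 1.57-fold (1.39 to 1.79) higher in FLOX than in WT, and its VC to FLOX ratio was 1.05 (0.954 to 1.15). Of the 9 members it was the only one past 1.5-fold in either contrast with WT; there 13.4% of genes were that much higher in VC and 13.5% in FLOX. Cdh5 was lower than in WT, with ratios of 0.705 (0.648 to 0.766) in VC and 0.688 (0.638 to 0.742) in FLOX. Tjp1 was lower too, with the lowest VC ratio of the members, 0.672 (0.580 to 0.777), and 0.710 (0.624 to 0.807) in FLOX. Plvap was lower than in WT by ratios of 0.821 (0.757 to 0.890) in VC and 0.704 (0.653 to 0.759) in FLOX, and Pecam1 by 0.766 (0.700 to 0.839) in VC and 0.879 (0.812 to 0.952) in FLOX. Jam2 was higher than in WT, at 1.44 (1.21 to 1.72) in VC and 1.43 (1.22 to 1.68) in FLOX. The WT arterial cells were those without Gja5 and Bmx, and the part of this makeup in the ratios was not tested. Without the cells over 2% neutrophil UMIs or with any smooth muscle UMI, arterial Jam2 was 460.0 CPM in VC, 426 CPM in FLOX and 274 CPM in WT.

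**Figure D5:**
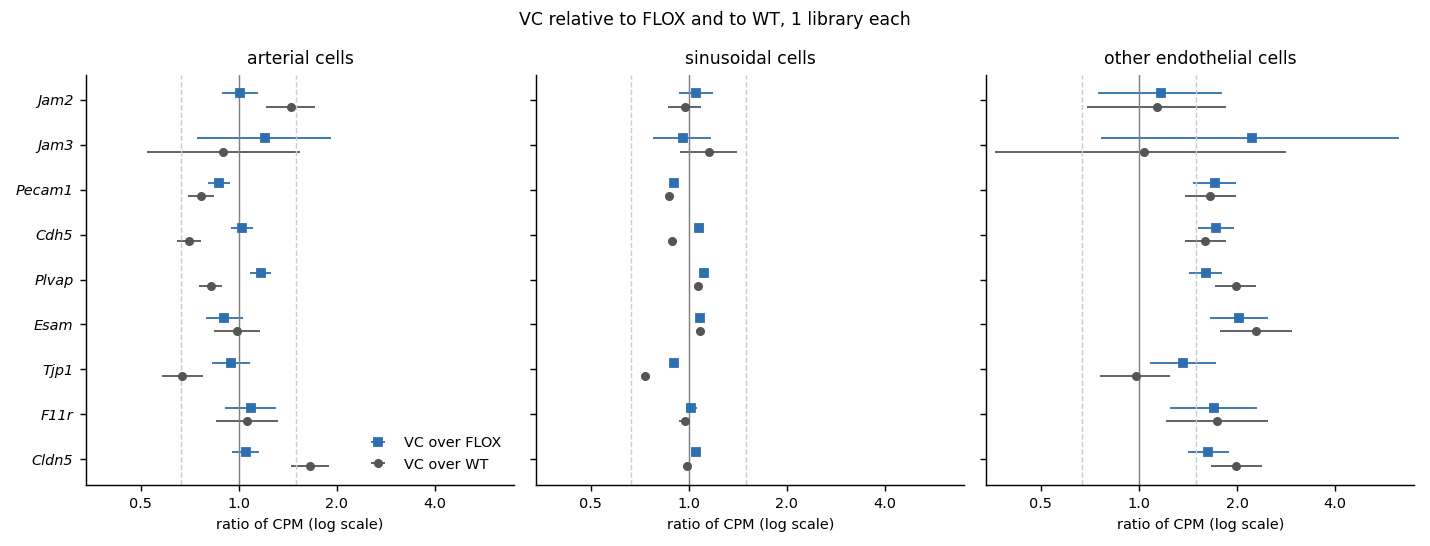
Ratio of the VC level to the FLOX level (squares) and to the WT level (circles) of 9 members, with 95% counting intervals, in arterial, sinusoidal and other endothelial cells; the horizontal axis is logarithmic and dashed lines mark 1.5-fold. Sinusoidal ratios lie between 0.734 and 1.15, and only in the other endothelial cells do 6 members lie past 1.5-fold against both controls, which they do not once cells with Ptprc are left out.

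In endothelial cells of neither vessel type, 6 of 8 members, Cdh5, Pecam1, Cldn5, Esam, F11r and Plvap, were past 1.5-fold higher in VC than in both controls, as were 6.86% of 7728 genes, and 0 were lower (7.74%). Cdh5 was 641 CPM in VC, 372 CPM in FLOX and 402 CPM in WT, and Plvap 725, 452 and 366 CPM. The genes Tek, Erg, Sox18, Emcn and Ptprb, pan-endothelial markers outside the gate, summed to 1499 CPM in VC, 997 CPM in FLOX and 932.5 CPM in WT in these cells. Ptprc was found in 15.8% of the VC, 31.1% of the FLOX and 17.1% of the WT cells. Without cells holding Ptprc or at least 2 Adipoq UMIs, applied here after the values were seen, 64 VC, 124 FLOX and 63 WT cells remained. The ratios of these 6 members then lay between 0.969 and 1.28 against FLOX and between 0.825 and 1.16 against WT, none past 1.5-fold. Cdh5 was then 1011 CPM in VC, 1014 CPM in FLOX and 1227 CPM in WT, and Plvap 1156, 1194 and 1092 CPM.

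The VC library differed from the controls in interferon response genes, which summed to 7181 CPM in VC, 722 CPM in FLOX and 769.5 CPM in WT sinusoidal cells. Sinusoidal cells with at least 5 UMIs of the chemokine Cxcl9 were 58.8% in VC, 7.87% in FLOX and 14.6% in WT. Within each library Jam2 was lower in these cells, at 17.2 CPM in VC, 5.01 CPM in FLOX and 14.5 CPM in WT, against 30.9, 22.6 and 34.5 CPM in VC, FLOX and WT cells without Cxcl9. The counting intervals did not overlap in any library, but they leave out the spread between cells. Single sinusoidal cells held up to 18 Jam2 UMIs in VC, 23 in FLOX and 21 in WT. Cxcl9 was itself lower in arterial than in sinusoidal cells (edgeR log2 fold change -3.02). The part of cells with arterial genes inside the sinusoidal gate in this split was not tested. Cldn5 had no common direction: it was 999 CPM in VC, 1068 CPM in FLOX and 1192 CPM in WT cells with Cxcl9, against 1193, 981 and 997 CPM without. Cells with Cxcl9 were deeper in each library, with medians of 11795, 11035 and 14860.5 UMIs in VC, FLOX and WT against 9048, 7068 and 9610 UMIs. Erythroid genes summed to 563 CPM in VC, 26.3 CPM in FLOX and 2229 CPM in WT sinusoidal cells, and their part in the differences between libraries was not tested.

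Outside the members 1 adherens junction gene was past 1.5-fold in sinusoidal cells. Cdh2 had 10.0 CPM in VC, from 215 UMIs, against 26.8 CPM in FLOX and 22.7 CPM in WT, ratios of 0.374 to FLOX and 0.441 to WT. LepR stromal cells held 416 CPM of Cdh2 in VC, 456 CPM in FLOX and 585 CPM in WT. Its part in the sinusoidal values was not tested. In arterial cells Icam1, an adhesion receptor for leukocytes, had 70.7 CPM in VC, 32.6 CPM in FLOX and 33.6 CPM in WT, from 69, 52 and 24 UMIs. Cldn15 was past the rule there in the higher direction on the counts given above. Cgnl1, paracingulin, was lower, at 82.0 CPM in VC, 125 CPM in FLOX and 136 CPM in WT.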

How the data were processed

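Per the file headers and the deposited values, each library's matrix holds raw UMI counts per gene and barcode, 37361779 in VC, 61758462 in FLOX and 56853574 in WT, not normalised by the authors. Per the submitters' processing notes Cell Ranger 2.1.1, Seurat 3.1 and mm10 were used, while the matrix header gives software version 3.1.0. Gates and sums were computed in Python 3.11.15. In R 4.3.3, edgeR 4.0.16 (filterByExpr, TMM, quasi-likelihood) and DESeq2 1.42.0 compared arterial with sinusoidal sums, after a check of edgeR on simulated data. Over genes of all levels, the check recovered 4.17% of 1.5-fold, 47.9% of 2-fold and 81.25% of 4-fold changes. The simulated counts had no library effect and the same spread setting for every gene, so these rates need not hold for the real comparison. Deviations of arterial and sinusoidal sums from their vessel-type means correlated within a library at 0.354 in VC, 0.399 in FLOX and 0.433 in WT over 13340 genes. The pairing comes from the shared library, and it was kept as a block. Poisson and Clopper-Pearson intervals at 95% and the limit of 3 UMIs cover counting error only. No doublet caller was run, and the study's cell annotation was not used. The members and lists were chosen with earlier results of these data known. Named genes are the members, up to 4 called genes of each other list with the largest change, genes past the 1.5-fold rule, and the 3 genes most like Cdh5, Cldn5 and Plvap. Ctnnb1, Ctnnd1, Magi1, Amotl1, Marveld2, the genes not called, the genes most like Jam2 and the splits by Jam2 and Cxcl9 were chosen after values were seen. For 1 tight junction gene outside the members, values are not reported here.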

Additional observations from a re-analysis of the deposited data

Results flagged for a closer look

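Plvap and Cldn5 differed in direction between libraries or vessel types by more than counting error; these differences were not tested, since each genotype is 1 library. Plvap was lower in arterial than in sinusoidal cells of FLOX, with a ratio of 0.918, and higher in those of WT, with a ratio of 1.25. Its ratio of VC to WT was 0.821 in arterial cells and 1.07 in sinusoidal cells. The ratio of FLOX to WT of Cldn5 was 1.57 in arterial cells and 0.939 in sinusoidal cells. In each case the WT arterial cells take part, 59 cells with 0 UMIs of Gja5 and Bmx.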

How the results depend on the processing

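The 3 members called higher and the 1 called lower in arterial cells were called in the same direction under all 14 alternatives, with log2 fold changes of 3.90 to 5.07 for Jam2, 1.86 to 2.26 for Jam3, 0.80 to 0.99 for Pecam1 and -0.98 to -0.64 for Cldn5, and no other member was called under any of them. Adjusted p reached at most 0.0291, for Cldn5. The count of all genes called was 3175; leaving out FLOX lowered it to 1380, and leaving out each library in turn gave 1380 to 4119. Without the replicate block of library it was 2489, and no member changed its call. DESeq2 called 2510 genes, 53.1% of them higher against 45.01% in edgeR. The members past 1.5-fold in VC stayed at 0 in arterial, sinusoidal and all endothelial cells under 11 alternatives each. Single ratios in endothelial cells moved beyond their counting interval in 29 of 90 cases for VC over FLOX and 20 of 90 for VC over WT; scaling by the median of ratios raised all of them by 0.07 and 0.13 on the log2 scale. The 59 to 186 arterial cells limit rare genes such as Jam3 and Ocln, and the absence of replicates limits every contrast between genotypes.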
